A study of Mus musculus with 8 samples.

Results

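Control mouse embryonic stem cells (ESCs), which carry no knockout, were compared between 2i/LIF and LIF/serum culture. The comparison used 4 of the 8 RNA-seq libraries of the series, 2 per medium, and was chosen by the labelled genotype and medium alone. Of 52550 genes listed, 20749 had enough reads to be tested. The other 4 libraries were of Dax1KO cells, in which the nuclear receptor gene Nr0b1 (encoding DAX1) was targeted, 2 per medium. They entered the shared estimate of the spread and are otherwise used only where Dax1KO cells or the genotypes are named. All cells were at passage 3, on plates coated with gelatin, and both media held 10 ng/ml of leukaemia inhibitory factor (LIF). The 2i/LIF medium was serum-free N2B27 with 1 µM PD0325901, an inhibitor of MEK, and 3 µM CHIR99021, an inhibitor of GSK3. LIF/serum was DMEM with 15% fetal bovine serum and no inhibitor. Basal medium, serum and the inhibitors changed together, so their effects cannot be told apart. The sources used here name neither the parental line of the control cells nor whether the 2 libraries of a group came from separate cultures, so p-values measure the spread between libraries, which may be technical.

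ESCs in both media self-renew and keep the capacity to form all embryonic lineages. LIF acts through the receptor pair LIFR and gp130 to activate STAT3. Fibroblast growth factor 4, made by the cells themselves, activates MEK and ERK and pushes cells out of the naive state, and PD0325901 blocks this step. CHIR99021 stabilises beta-catenin, which relieves repression of naive genes by TCF3. Serum brings growth factors, BMP activity, lipids and adhesion proteins, and serum cultures are known to be mixed, with cells moving between naive and more advanced states. The 2i state is also known for a DNA methylome far lower than that of serum cells.

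The control libraries held 36390567 and 37155910 counts in 2i/LIF and 35951189 and 35911384 in LIF/serum, and the 10 most abundant genes took 4.94% to 5.18% of them. The SD of the log2 ratio between libraries was 0.703 and 0.744 within a medium and 1.43 to 1.47 between media. Nr0b1 itself had 457 and 300.1 normalized counts in control 2i/LIF, 5402 and 5001 in control LIF/serum, 0 and 0 in Dax1KO 2i/LIF and 13.4 and 5.85 in Dax1KO LIF/serum. ESC markers were abundant in every control library, with 224780 to 240702 normalized counts summed over 10 genes in 2i/LIF and 228719 to 269272 in LIF/serum. Markers of other cells moved with the medium. The 6 primitive endoderm markers summed to 1057 to 1072 in 2i/LIF and 3915 to 5488 in LIF/serum, and all 6 were lower in 2i/LIF. The least firm was Sox17 (26.1 and 25.01 against 43.5 and 50.1, log2 fold change -0.87, edgeR adjusted p = 0.0414), which lost its call in 9 of 13 alternatives, DESeq2, the control libraries fitted alone and each left-out library among them (adjusted p up to 0.137). The 14 fibroblast markers summed to 2957 to 3280 against 766.5 to 957.8, most of it Thy1 (1726 and 2189 against 414 and 409) and Fbln2. Of these, 8 were tested, 5 were higher and 1 lower, while Fap and S100a4 were at 0 in all control libraries and Prrx1, Twist2, Dcn and Col3a1 had too few counts to test. Trophectoderm markers (4 genes) summed to 763.1 to 918.2 against 340.3 to 381.8, and primitive streak markers (4 genes) to 1146 to 1316 against 292.6 to 387.2. Both sets hold Eomes (623 and 790.2 against 258 and 347), which makes up most of the trophectoderm sum. Of the other trophectoderm markers Gata3 was higher, Cdx2 was lower and Elf5 was not called. Neural markers (4 genes, 3 tested) summed to 298.1 to 381 against 496 to 560.9, and none of them was called. In these bulk libraries fewer cells of a type and less RNA per cell cannot be told apart, and the part of other cell types in the results below was not tested.

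A gene was called when it changed by 1.2-fold or more and its p from edgeR's quasi-likelihood test, after Benjamini-Hochberg adjustment, did not exceed 0.05. By this rule 36.8% of the tested genes were called (7641 genes), 20.3% higher in 2i/LIF (4210) and 16.5% lower (3431). With the limit raised to 2-fold the shares were 12.9% (2670) and 8.99% (1865). The libraries of the 2 media did not overlap for 68.6% of the tested genes, so an absence of overlap with 2 libraries per group says little by itself. The median log2 fold change, given throughout as 2i/LIF over LIF/serum, was 0.013 over all tested genes. Of the genes named below, Ccn2, Cdkn1c, Lats2 and Mt2 share exonic sequence with other gene models, and Ldhb, Tdh, Bnip3, Igf2, Tuba3b and Dppa3 have near-identical copies, so that their counts are uncertain. Leaving out 2i/LIF replicate 2 lowered the number of higher genes most, to 2769. Normalized counts are counts scaled to a common library size, and pairs of values joined by "against" give the 2i/LIF libraries first. SE is the standard error of a log2 fold change, back-calculated as its absolute value over the square root of the F statistic of edgeR's test. Where both libraries of a group were at 0, they were set to a floor of 3 counts each and the fold change is given as a lower bound ("at least"). Low deposited counts piled up at 3, and if 3 counts were 1 unit of counting, a floor of 3 such units would make these bounds 3 times smaller. A range in brackets after the median of a list spans the 13 alternatives, left-out libraries included. Where leaving out a library moved the fold of a called gene by over 1.5 times, that value closes the paragraph. Lists of genes for signalling, methylation, lineage and metabolism were then read against these shares.

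**Figure D1:**
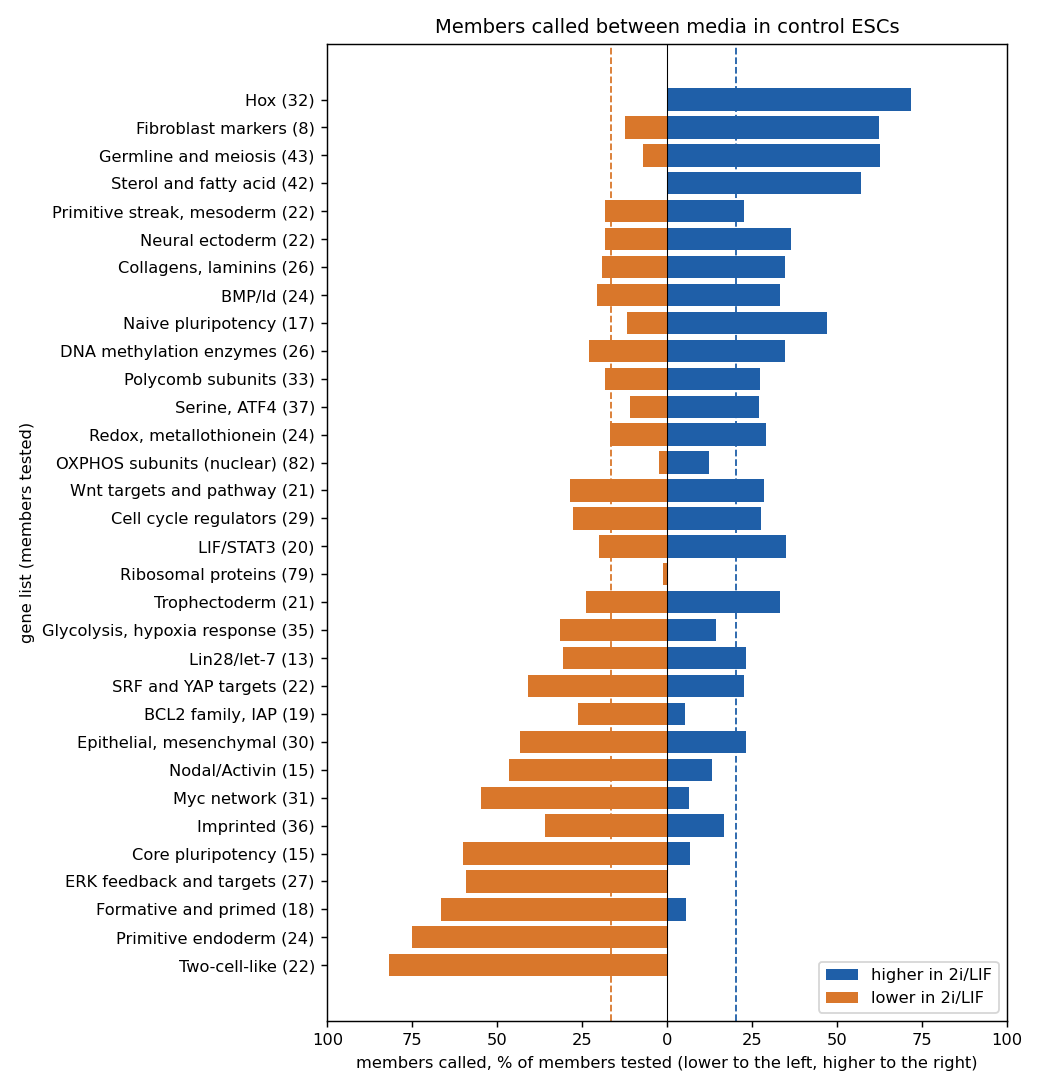
Share of tested members called lower (left, orange) or higher (right, blue) in 2i/LIF for each gene list, in percent of members tested (number in brackets), ordered by median log2 fold change from the highest at the top. Dashed lines mark the shares over all tested genes, 16.5% lower and 20.3% higher, and the bars of Hox, germline, fibroblast marker and sterol genes lie far to the right of theirs while those of two-cell-like, primitive endoderm, formative, core, ERK and Myc genes lie far to the left.

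Targets and feedback inhibitors of the MEK/ERK pathway were lower or not called in 2i/LIF, the medium that holds the MEK inhibitor. In this list, 0 of 27 tested members were higher in 2i/LIF (0%) and 16 lower (59.3%), with a median log2 fold change of -0.89 (-1.09 to -0.83). Dusp6, a phosphatase that inactivates ERK, had 88.2 and 94 normalized counts in 2i/LIF and 2453 and 2171 in LIF/serum (log2 fold change -4.66, SE 0.25, edgeR adjusted p = 2.15e-05). Spry4, a feedback inhibitor of receptor tyrosine kinase signalling, was lower in 2i/LIF, at 97.3 and 222 normalized counts against 9667 and 8871 (log2 fold change -5.86, SE 0.40, edgeR adjusted p = 5.04e-05). Egr1, an immediate-early transcription factor, had 64.2 and 40.01 normalized counts in 2i/LIF and 3080 and 2315 in LIF/serum (log2 fold change -5.69, SE 0.53, edgeR adjusted p = 0.00018). For each of these 3 genes both 2i/LIF libraries lay below both LIF/serum libraries, while 68.6% of all tested genes showed no overlap in either direction. Of the 3 the fitted fold was smallest for Dusp6, at 25.3. Spry2, a paralog of Spry4, fell from 3886 and 4103 normalized counts in LIF/serum to 1015 and 825 in 2i/LIF (log2 fold change -2.12, SE 0.17, edgeR adjusted p = 9.2e-05). ETS factors induced by FGF signalling differed in how far they fell. Etv4 had 718 and 751 normalized counts in 2i/LIF and 3662 and 3172 in LIF/serum (log2 fold change -2.22, SE 0.13, edgeR adjusted p = 2.94e-05). Its paralog Etv5 was lower by less, at 8253 and 9999 against 14404 and 12426 (log2 fold change -0.56, SE 0.16, edgeR adjusted p = 0.0289). The growth regulator Myc fell further, from 1766 and 1783 in LIF/serum to 76.2 and 46 in 2i/LIF (log2 fold change -4.86, SE 0.34, edgeR adjusted p = 5.18e-05). Not every ERK-responsive gene moved: cyclin D1 (Ccnd1), which shares exons with the LTO1 locus, overlapped between media at 5792 and 5354 against 6209 and 4403 (log2 fold change 0.07, edgeR adjusted p = 0.782). Fos was not called either, with a log2 fold change of 0.70 (edgeR adjusted p = 0.0701). The ERK list had 2 higher without 2i/LIF replicate 2. The call was lost for Etv5 without 2i/LIF replicate 1 or LIF/serum replicate 1 and under 2 other settings (adjusted p up to 0.163). For Spry4 the log2 fold change was -6.62 without 2i/LIF replicate 2.

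Wnt target genes were split between the media, of which 2i/LIF holds the GSK3 inhibitor. In this list, 6 of 21 tested members were higher in 2i/LIF (28.6%) and 6 lower (28.6%), with a median log2 fold change of 0.07 (-0.75 to 0.30). Higher genes included feedback inhibitors and a TCF factor. Nkd1, an inhibitor of Dishevelled, was higher in 2i/LIF, at 389 and 453 normalized counts against 106 and 139 (log2 fold change 1.78, SE 0.20, edgeR adjusted p = 0.000434). Tcf7, the TCF1 transcription factor, had 4485 and 4049 normalized counts in 2i/LIF and 2412 and 2116 in LIF/serum (log2 fold change 0.91, SE 0.12, edgeR adjusted p = 0.000725). Apcdd1, a membrane inhibitor of Wnt receptors, rose from 169.6 and 184 normalized counts in LIF/serum to 631 and 670.2 in 2i/LIF (log2 fold change 1.88, SE 0.18, edgeR adjusted p = 0.000189). The other members named here went the other way or were not called. Dkk1, a secreted Wnt antagonist that primitive endoderm also makes, had 9.02 and 5.0 normalized counts in 2i/LIF and 274 and 288 in LIF/serum (log2 fold change -5.30, SE 0.38, edgeR adjusted p = 6.09e-05). Ccnd2, cyclin D2, was lower in 2i/LIF, at 56.1 and 26 normalized counts against 544 and 499 (log2 fold change -3.66, SE 0.36, edgeR adjusted p = 0.000236). Lef1, a TCF family factor of more advanced cells, had 66.2 and 64 normalized counts in 2i/LIF and 262 and 596 in LIF/serum (log2 fold change -2.72, SE 0.57, edgeR adjusted p = 0.00747). Axin2, a common reporter of Wnt activity, was not called (378 and 255 against 471 and 445, log2 fold change -0.53, edgeR adjusted p = 0.0757), nor were Sp5 (115 and 45 against 104 and 146, log2 fold change -0.64, edgeR adjusted p = 0.271) and T. The caudal gene Cdx2 was at 0 in both 2i/LIF libraries and at 25.4 and 14.9 in LIF/serum, at least 6.72-fold lower in 2i/LIF (edgeR adjusted p = 0.0124), while its paralog Cdx1 overlapped (79.2 and 144 against 71 and 93.9, log2 fold change 0.44, edgeR adjusted p = 0.336). The Wnt list had a median of -0.75 without 2i/LIF replicate 1. Significance was not kept for Lef1 without 2i/LIF replicate 2 (adjusted p up to 0.0527) and for Cdx2 without 2i/LIF replicate 2 or LIF/serum replicate 1 (adjusted p up to 0.0593). For Ccnd2 the log2 fold change was -4.32 without 2i/LIF replicate 1. For Lef1 the log2 fold change was -2.03 without LIF/serum replicate 2.

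The LIF pathway, which both media supply, changed little at the level of receptor and transducer. In the list of LIF receptor and STAT3 response genes, 7 of 20 tested members were higher in 2i/LIF (35%) and 4 lower (20%), with a median log2 fold change of 0.03 (-0.17 to 0.34). The receptor subunits Lifr (2456 and 2190 against 3449 and 2501, log2 fold change -0.36, edgeR adjusted p = 0.139) and Il6st, encoding gp130 (2439 and 2289 against 2129 and 2886, log2 fold change -0.09, edgeR adjusted p = 0.76), were not called. The same held for Stat3 (4902 and 4602 against 4102 and 3642, log2 fold change 0.30, edgeR adjusted p = 0.0974) and its feedback inhibitor Socs3 (8573 and 8016 against 5762 and 6633, log2 fold change 0.42, edgeR adjusted p = 0.0548). Downstream genes moved in both directions. Klf4, a naive factor that STAT3 induces, rose from 6817 and 7651 normalized counts in LIF/serum to 13029 and 11056 in 2i/LIF (log2 fold change 0.74, SE 0.14, edgeR adjusted p = 0.00439). Tfcp2l1, another STAT3 target of the naive network, had 24169 and 19841 normalized counts in 2i/LIF and 9251 and 6808 in LIF/serum (log2 fold change 1.45, SE 0.17, edgeR adjusted p = 0.000543). Against these, other targets fell. Gbx2, a STAT3 target whose exons overlap an antisense transcript, was lower in 2i/LIF, at 274 and 256 normalized counts against 2947 and 2269 (log2 fold change -3.30, SE 0.27, edgeR adjusted p = 0.000103). Junb, an immediate-early gene that both STAT3 and ERK induce, had 1167 and 947 normalized counts in 2i/LIF and 2370 and 2694 in LIF/serum (log2 fold change -1.26, SE 0.16, edgeR adjusted p = 0.000685). The LIF list had a median of -0.17 without LIF/serum replicate 1.

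Members of the BMP pathway moved in both directions, with Id1, Id2 and Id3 lower in 2i/LIF and Id4 higher. In this list, 8 of 24 tested members were higher in 2i/LIF (33.3%) and 5 lower (20.8%), with a median log2 fold change of 0.28 (0.04 to 0.40). The Id genes encode inhibitors of differentiation factors and are direct SMAD targets. Id1 fell from 2947 and 3288 normalized counts in LIF/serum to 126 and 176 in 2i/LIF (log2 fold change -4.36, SE 0.20, edgeR adjusted p = 1.61e-05). Id2 had 307 and 227 normalized counts in 2i/LIF and 1128 and 1112 in LIF/serum (log2 fold change -2.07, SE 0.30, edgeR adjusted p = 0.00143). Id3 was lower in 2i/LIF, at 473 and 321 normalized counts against 710.3 and 747 (log2 fold change -0.87, SE 0.22, edgeR adjusted p = 0.0173). Id4 differed in direction, with a log2 fold change of 1.19 (edgeR adjusted p = 0.0108). The pathway's ligands and transducers were divided as well. Bmp4, the ligand, had 253 and 288 normalized counts in 2i/LIF and 2008 and 1955 in LIF/serum (log2 fold change -2.87, SE 0.18, edgeR adjusted p = 3.5e-05). Bmp7, another BMP ligand, rose from 72.1 and 130.1 normalized counts in LIF/serum to 1052 and 876 in 2i/LIF (log2 fold change 3.25, SE 0.31, edgeR adjusted p = 0.000192). These ligands moved in opposite directions. Smad9, a receptor-regulated SMAD, had 184 and 141 normalized counts in 2i/LIF and 15.9 and 27.7 in LIF/serum (log2 fold change 2.89, SE 0.38, edgeR adjusted p = 0.000786). The inhibitory Smad7 was lower (1173 and 1228 against 2236 and 2002, log2 fold change -0.82, edgeR adjusted p = 0.00811). Single alternatives removed the call for Id3 without 2i/LIF replicate 2 or LIF/serum replicate 2 (adjusted p up to 0.0826) and for Smad7 without 2i/LIF replicate 1 (adjusted p up to 0.0505).

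Nodal/Activin genes were mostly lower or not called in 2i/LIF. In this list, 2 of 15 tested members were higher in 2i/LIF (13.3%) and 7 lower (46.7%), with a median log2 fold change of -0.42 (-0.66 to -0.27). Lefty1, a Nodal target and secreted Nodal inhibitor, was lower in 2i/LIF, at 130.4 and 165 normalized counts against 3525 and 4234 (log2 fold change -4.71, SE 0.36, edgeR adjusted p = 8.2e-05). Nodal, the ligand, had 2178 and 2222 normalized counts in 2i/LIF and 3514 and 3356 in LIF/serum (log2 fold change -0.64, SE 0.11, edgeR adjusted p = 0.00318). Both are outputs or inputs of the same receptor complex. Inhbb, encoding an activin subunit, fell from 2901 and 2913 normalized counts in LIF/serum to 625 and 850.2 in 2i/LIF (log2 fold change -1.98, SE 0.17, edgeR adjusted p = 0.000138). Lefty2, the second Lefty gene, had 2086 and 4227 normalized counts in 2i/LIF and 8145 and 10192 in LIF/serum (log2 fold change -1.54, SE 0.49, edgeR adjusted p = 0.0411). The receptor Acvr1b (2055 and 2051 against 1174 and 1238, log2 fold change 0.77, edgeR adjusted p = 0.00142) and the Nodal convertase Pcsk6 (3832 and 3840 against 2309 and 2150, log2 fold change 0.78, edgeR adjusted p = 0.00123) were higher. Serum-responsive targets of SRF, the factor that reads the actin cytoskeleton, and of YAP were divided. In this second list, 5 of 22 tested members were higher in 2i/LIF (22.7%) and 9 lower (40.9%), with a median log2 fold change of -0.30 (-0.33 to -0.15). Cnn1, smooth muscle calponin, an SRF target, was lower in 2i/LIF, at 7.02 and 0 normalized counts against 41.4 and 87.5 (log2 fold change -4.15, SE 0.90, edgeR adjusted p = 0.00843). Tagln, another SRF target, with 62.4% of its exonic length shared with a neighbouring gene model, had 26.1 and 29 normalized counts in 2i/LIF and 149.5 and 166 in LIF/serum (log2 fold change -2.51, SE 0.28, edgeR adjusted p = 0.000415). Ankrd1 was at 0 in both 2i/LIF libraries and at 25.4 and 14.9 in LIF/serum, at least 6.72-fold lower in 2i/LIF (edgeR adjusted p = 0.0118). The YAP targets Ccn1 (673 and 575 against 710.3 and 557, log2 fold change -0.02, edgeR adjusted p = 0.954) and Ccn2 (914 and 1051 against 916 and 724, log2 fold change 0.26, edgeR adjusted p = 0.401) overlapped between media, and Lats2 (328 and 423 against 166 and 117, log2 fold change 1.40, edgeR adjusted p = 0.00542) and Amotl2 (2741 and 2454 against 1659 and 1317, log2 fold change 0.80, edgeR adjusted p = 0.00564) were higher in 2i/LIF. The SRF and YAP list had 3 higher without 2i/LIF replicate 2 or LIF/serum replicate 2. A call was not made for Lefty2 without 2i/LIF replicate 1, LIF/serum replicate 1 or LIF/serum replicate 2 and under 2 other settings (adjusted p up to 0.198). For Lefty2 the log2 fold change was -2.18 without 2i/LIF replicate 2. For Cnn1 the log2 fold change was -3.22 without 2i/LIF replicate 2 and -3.54 without LIF/serum replicate 2.

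**Figure D2:**
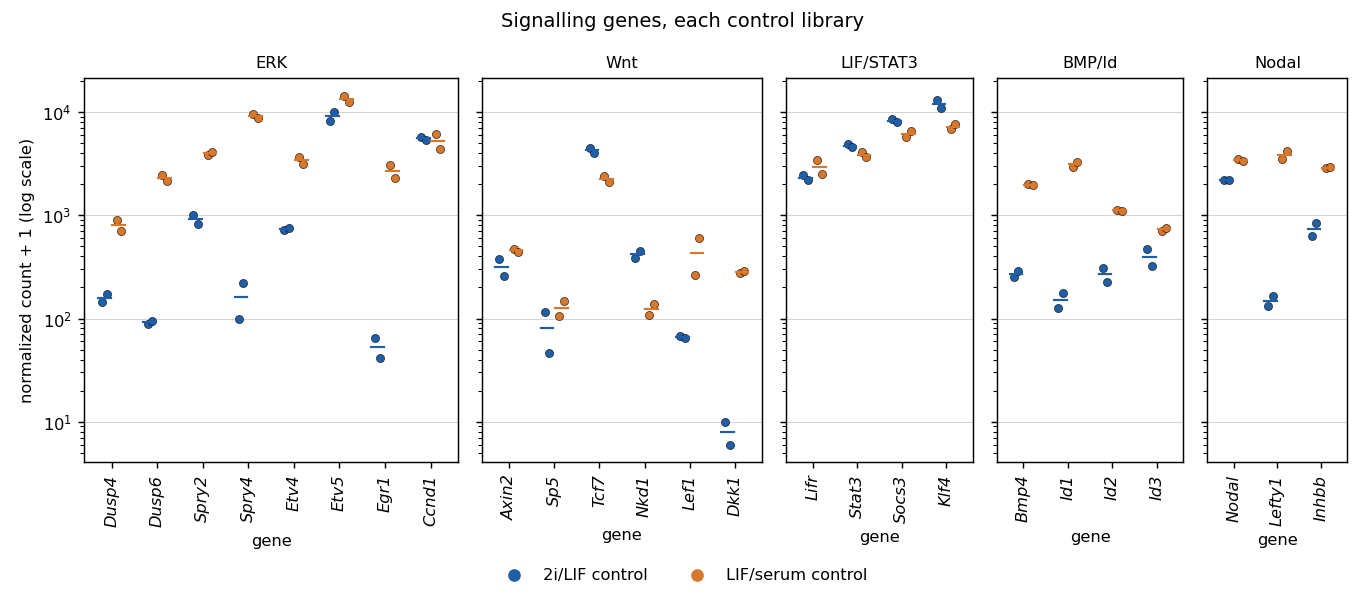
Normalized counts plus 1 (log axis) of signalling genes in each control library, 2i/LIF in blue and LIF/serum in orange, with a short line at each group mean. The 2i/LIF points of Dusp6, Spry4, Egr1, Id1, Lefty1 and Dkk1 lie more than a power of 10 below those of LIF/serum, while the 2 media overlap for Ccnd1 and lie close together for Lifr and Stat3.

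Naive pluripotency factors were higher in 2i/LIF in part. Among the genes listed as naive factors and markers, 8 of 17 tested members were higher in 2i/LIF (47.1%) and 2 lower (11.8%), with a median log2 fold change of 0.27 (0.22 to 0.48). Nanog, a homeodomain factor of the naive network, rose from 27164 and 25999 normalized counts in LIF/serum to 65453 and 73848 in 2i/LIF (log2 fold change 1.39, SE 0.10, edgeR adjusted p = 7.44e-05). Prdm14, a repressor of FGF signalling and DNA methylation, had 2713 and 3665 normalized counts in 2i/LIF and 831 and 994 in LIF/serum (log2 fold change 1.80, SE 0.18, edgeR adjusted p = 0.000214). Dppa3, which keeps UHRF1 from maintaining methylation and has a near-identical pseudogene copy, was higher in 2i/LIF, at 2498 and 3791 normalized counts against 326 and 604 (log2 fold change 2.76, SE 0.34, edgeR adjusted p = 0.000636). For these 3 genes and Tfcp2l1 both 2i/LIF libraries lay above both LIF/serum libraries. The media did not overlap, in either direction, for 68.6% of all tested genes. By contrast Esrrb (5203 and 5636 against 6450 and 4498, log2 fold change -0.01, edgeR adjusted p = 0.96) and Klf2 (14775 and 16748 against 13510 and 17905, log2 fold change 0.00, edgeR adjusted p = 0.985) overlapped between media, and Zfp42, encoding REX1, was not called (25658 and 22363 against 31678 and 31237, log2 fold change -0.39, edgeR adjusted p = 0.0924). Pecam1, an adhesion molecule of naive ESCs, had 5760 and 5340 normalized counts in 2i/LIF and 1573 and 1598 in LIF/serum (log2 fold change 1.81, SE 0.10, edgeR adjusted p = 2.66e-05). Nr0b1, the gene targeted in the Dax1KO cells, was among the 2 naive members lower in 2i/LIF, with Gbx2 above (log2 fold change -3.78, SE 0.27, edgeR adjusted p = 0.000113). Its libraries stood far apart, at 457 and 300.1 against 5402 and 5001. With at least 10 counts required in every library 1 naive member was lower and the median was 0.46.

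Most tested core and formative genes were lower in 2i/LIF. Among core factors and cofactors, 1 of 15 tested members were higher in 2i/LIF (6.67%) and 9 lower (60%), with a median log2 fold change of -0.68 (-0.73 to -0.54). Pou5f1, encoding OCT4, fell from 36137 and 45128 normalized counts in LIF/serum to 24462 and 26105 in 2i/LIF (log2 fold change -0.68, SE 0.13, edgeR adjusted p = 0.00469). Its partner Sox2 was not called (19973 and 16999 against 20361 and 22469, log2 fold change -0.21, edgeR adjusted p = 0.189). Utf1, a chromatin protein of ESCs, had 6355 and 9115 normalized counts in 2i/LIF and 15750 and 19456 in LIF/serum (log2 fold change -1.19, SE 0.18, edgeR adjusted p = 0.00161). Among formative and primed markers, which mark cells leaving the naive state, 1 of 18 tested members were higher in 2i/LIF (5.56%) and 12 lower (66.7%), with a median log2 fold change of -1.07 (-1.33 to -0.88). Fgf5, a marker of the epiblast after implantation, had 0 counts in both 2i/LIF libraries and 35 and 46.9 normalized counts in LIF/serum, at least 13.6-fold lower in 2i/LIF (edgeR adjusted p = 0.00281). Pou3f1, encoding OCT6, was lower in 2i/LIF, at 296 and 209 normalized counts against 563 and 684 (log2 fold change -1.30, SE 0.21, edgeR adjusted p = 0.00228). Otx2, which drives entry into the formative state, was not called (1585 and 1789 against 1691 and 2270, log2 fold change -0.23, edgeR adjusted p = 0.438). Sox3 was the 1 member called higher (264 and 251 against 117 and 169.6, log2 fold change 0.85, edgeR adjusted p = 0.0288). The genes that block let-7 maturation were lower: Lin28a (1590 and 1096 against 14173 and 13303, log2 fold change -3.35, edgeR adjusted p = 0.000573) and Lin28b (417 and 514 against 1659 and 1493, log2 fold change -1.76, edgeR adjusted p = 0.000393). In the list of the Lin28/let-7 axis as a whole 3 of 13 tested members were higher in 2i/LIF (23.1%) and 4 lower (30.8%). Over all genes these shares were 20.3% and 16.5%, and the median of the list was -0.25 (range -0.45 to -0.05). The RNA-binding protein genes Igf2bp1 (-0.56) and Igf2bp3 (0.53), given as log2 fold changes, were called in opposite directions. Replicate 2 lay below replicate 1 in both media for 53.3% of the core members, against 26.4% of all genes. The core list had 0 higher without 2i/LIF replicate 1 or LIF/serum replicate 2. The formative list had 0 higher without 2i/LIF replicate 1 or 2i/LIF replicate 2 or LIF/serum replicate 1. The Lin28/let-7 list had 1 higher without 2i/LIF replicate 2 or LIF/serum replicate 2. The call was lost for Sox3 without 2i/LIF replicate 1, 2i/LIF replicate 2 or LIF/serum replicate 1 and under 2 other settings (adjusted p up to 0.119) and for Igf2bp1 without 2i/LIF replicate 1 (adjusted p up to 0.0589).

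The DNA methylation machinery was divided between maintenance and de novo enzymes. In this list, 9 of 26 tested members were higher in 2i/LIF (34.6%) and 6 lower (23.1%), with a median log2 fold change of 0.25 (0.06 to 0.30). Dnmt3l, the cofactor of the de novo methyltransferases, had 2058 and 4076 normalized counts in 2i/LIF and 15224 and 17554 in LIF/serum (log2 fold change -2.42, SE 0.29, edgeR adjusted p = 0.000541). Dnmt3b, a de novo methyltransferase, fell from 12203 and 8933 normalized counts in LIF/serum to 3022 and 3077 in 2i/LIF (log2 fold change -1.79, SE 0.18, edgeR adjusted p = 0.00023). The other de novo enzyme, Dnmt3a, did not pass the test (1705 and 2059 against 3067 and 2953, log2 fold change -0.68, edgeR adjusted p = 0.156). Maintenance genes were higher at the level of mRNA. Dnmt1, the maintenance methyltransferase, had 17205 and 18136 normalized counts in 2i/LIF and 11217 and 9003 in LIF/serum (log2 fold change 0.81, SE 0.14, edgeR adjusted p = 0.00355). Uhrf1, which recruits DNMT1 to newly replicated DNA, was higher in 2i/LIF, at 21432 and 22478 normalized counts against 12413 and 10951 (log2 fold change 0.91, SE 0.12, edgeR adjusted p = 0.00076). Of the 5-methylcytosine oxidases, Tet1 (9661 and 9840 against 21475 and 14419, log2 fold change -0.88, edgeR adjusted p = 0.0142) was lower, and Tet2 (3019 and 2270 against 5095 and 2705, log2 fold change -0.56, edgeR adjusted p = 0.161) and Tet3 (322 and 698 against 480.3 and 325, log2 fold change 0.34, edgeR adjusted p = 0.474) were not called. Idh1, which makes alpha-ketoglutarate, the co-substrate of TET enzymes, had 12848 and 12453 normalized counts in 2i/LIF and 4330 and 4074 in LIF/serum (log2 fold change 1.59, SE 0.10, edgeR adjusted p = 3.6e-05). Prdm14 and Dppa3, described above, were higher as well. No methylation was measured in these libraries. Significance was not kept for Tet1 without 2i/LIF replicate 1, 2i/LIF replicate 2 or LIF/serum replicate 1 (adjusted p up to 0.0727). For Dnmt3l the log2 fold change was -3.04 without 2i/LIF replicate 2.

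Germline and meiosis genes, many of which are silenced by promoter methylation in somatic cells, were mostly higher in 2i/LIF. Among them, 27 of 43 tested members were higher in 2i/LIF (62.8%) and 3 lower (6.98%), with a median log2 fold change of 1.54 (1.46 to 1.73). Dazl, an RNA-binding protein of germ cells, rose from 877 and 645 normalized counts in LIF/serum to 28967 and 25846 in 2i/LIF (log2 fold change 5.17, SE 0.20, edgeR adjusted p = 1.35e-05). Brdt, a testis bromodomain protein, had 672 and 775 normalized counts in 2i/LIF and 26.5 and 39.5 in LIF/serum (log2 fold change 4.45, SE 0.26, edgeR adjusted p = 2.91e-05). Slc25a31, the germ-cell ADP/ATP carrier, was higher in 2i/LIF, at 1959 and 2440 normalized counts against 121 and 115 (log2 fold change 4.22, SE 0.17, edgeR adjusted p = 1.35e-05). Taf7l, a testis paralog of a TFIID subunit, had 499 and 527 normalized counts in 2i/LIF and 117 and 104 in LIF/serum (log2 fold change 2.22, SE 0.17, edgeR adjusted p = 8.32e-05). Of these 4 genes Taf7l had the smallest fitted fold, 4.66. Tuba3b, an alpha-tubulin of testis with a near-identical copy, Tuba3a, rose from 97.5 and 197 normalized counts in LIF/serum to 3499 and 5441 in 2i/LIF (log2 fold change 4.92, SE 0.36, edgeR adjusted p = 6.83e-05). Sycp1, a synaptonemal complex protein, had 1210 and 539 normalized counts in 2i/LIF and 337 and 264 in LIF/serum (log2 fold change 1.54, SE 0.39, edgeR adjusted p = 0.0165). Several well-known germline genes did not follow: Ddx4, the Vasa helicase (451 and 431 against 584 and 536, log2 fold change -0.34, edgeR adjusted p = 0.196), Mael of the piRNA pathway (795 and 860.2 against 588 and 611, log2 fold change 0.46, edgeR adjusted p = 0.151) and Sycp3, 52.2% of whose exonic length overlaps Chpt1 (516 and 461 against 336 and 475, log2 fold change 0.27, edgeR adjusted p = 0.452). The 3 lower members were Dnmt3l, Prdm1, encoding BLIMP1 (513 and 660.2 against 1201 and 1103, log2 fold change -0.97, edgeR adjusted p = 0.00419), and Nanos3 (36.1 and 53 against 127 and 104, log2 fold change -1.38, edgeR adjusted p = 0.0124). Single alternatives removed the call for Sycp1 without 2i/LIF replicate 1, LIF/serum replicate 1 or LIF/serum replicate 2 (adjusted p up to 0.0976) and for Nanos3 without 2i/LIF replicate 1 or LIF/serum replicate 1 (adjusted p up to 0.0709). For Sycp1 the log2 fold change was 0.85 without 2i/LIF replicate 1.
The promoters of Slc25a31, Brdt, Taf7l and Dazl are shown as examples of germline genes higher in 2i/LIF, chosen with their values known to show windows with and without the motifs below. They are RefSeq windows of 300 bases on GRCm38.p6, from 250 bases before to 50 after the start, 5′ to 3′ on the gene's strand, at chr3:40708621-40708920 (+), chr5:107330944-107331243 (+), chrX:134476441-134476740 (-) and chr17:50293571-50293870 (-). Capitals mark the E-box CACGTG and the E2F motif TTCCCGC, or its reverse complement GCGGGAA. These windows hold 22, 23, 17 and 28 CpG dinucleotides in that order, against a median of 20 over all 13071 tested genes with a window.
Slc25a31: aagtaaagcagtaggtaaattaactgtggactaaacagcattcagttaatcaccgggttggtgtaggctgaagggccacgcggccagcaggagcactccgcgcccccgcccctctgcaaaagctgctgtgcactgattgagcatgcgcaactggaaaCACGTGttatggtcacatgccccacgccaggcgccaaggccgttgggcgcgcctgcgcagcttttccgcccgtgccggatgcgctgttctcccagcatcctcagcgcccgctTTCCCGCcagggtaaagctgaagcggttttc
Brdt: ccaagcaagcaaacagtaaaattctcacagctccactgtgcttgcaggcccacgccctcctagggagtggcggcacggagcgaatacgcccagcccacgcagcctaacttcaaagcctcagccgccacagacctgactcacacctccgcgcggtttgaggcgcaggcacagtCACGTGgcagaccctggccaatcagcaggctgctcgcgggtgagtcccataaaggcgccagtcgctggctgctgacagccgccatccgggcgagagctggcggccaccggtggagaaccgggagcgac
Taf7l: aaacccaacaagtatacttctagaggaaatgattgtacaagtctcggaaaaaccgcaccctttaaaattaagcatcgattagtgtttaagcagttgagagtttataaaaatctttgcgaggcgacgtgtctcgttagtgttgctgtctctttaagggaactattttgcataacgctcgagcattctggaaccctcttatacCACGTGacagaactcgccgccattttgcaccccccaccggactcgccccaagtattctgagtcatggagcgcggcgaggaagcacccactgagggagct
Dazl: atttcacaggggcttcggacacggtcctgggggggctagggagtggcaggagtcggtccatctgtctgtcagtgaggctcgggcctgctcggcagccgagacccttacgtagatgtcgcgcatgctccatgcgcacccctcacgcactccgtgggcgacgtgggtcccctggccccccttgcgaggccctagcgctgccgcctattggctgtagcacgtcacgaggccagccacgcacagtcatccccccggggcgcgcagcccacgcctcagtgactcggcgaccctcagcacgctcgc
An E-box was found in the windows of Slc25a31, Brdt and Taf7l, an E2F motif in that of Slc25a31 and neither in that of Dazl. Among germline genes with a window, 13 of 37 held an E-box (35.1%) and 10 held an E2F motif (27%), against 11% and 9.1% of all windows. Of the 24 germline genes with a window that were higher in 2i/LIF, 7 held an E-box and 6 an E2F motif. The number of CpGs in the window did not order the genes by their change: across 6 classes of CpG number, 21.4% to 25.1% of all genes were higher in 2i/LIF.

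More imprinted genes were called lower than higher in 2i/LIF. In this list, 6 of 36 tested members were higher in 2i/LIF (16.7%) and 13 lower (36.1%), with a median log2 fold change of -0.65 (-0.77 to -0.53). H19, a maternally expressed long non-coding RNA, was lower in 2i/LIF, at 29.1 and 48 normalized counts against 2618 and 2092 (log2 fold change -5.93, SE 0.90, edgeR adjusted p = 0.00169). Its neighbour Igf2 was lower as well (42.1 and 42 against 152 and 77.9, log2 fold change -1.45, edgeR adjusted p = 0.0156). Peg10, a paternally expressed gene derived from a retrotransposon, had 1193 and 2812 normalized counts in 2i/LIF and 20988 and 14365 in LIF/serum (log2 fold change -3.14, SE 0.42, edgeR adjusted p = 0.000949). Peg3, a zinc finger gene expressed from the paternal allele, fell from 4778 and 3358 normalized counts in LIF/serum to 1292 and 911 in 2i/LIF (log2 fold change -1.88, SE 0.24, edgeR adjusted p = 0.00074). Other members went up. Igf2r, the maternally expressed receptor that clears IGF2, had 10314 and 10633 normalized counts in 2i/LIF and 3932 and 2719 in LIF/serum (log2 fold change 1.65, SE 0.18, edgeR adjusted p = 0.000359). Plagl1, a zinc finger gene, was higher in 2i/LIF, at 2455 and 2437 normalized counts against 658 and 336 (log2 fold change 2.30, SE 0.30, edgeR adjusted p = 0.000853). Meg3, of the Dlk1-Dio3 cluster, was not called (13520 and 12306 against 10964 and 10073, log2 fold change 0.30, edgeR adjusted p = 0.137). Reads were not split by allele, so these are total levels. In both media replicate 2 lay below replicate 1 for 38.9% of imprinted members, against 26.4% of all genes. A call was not made for Igf2 without 2i/LIF replicate 1, 2i/LIF replicate 2 or LIF/serum replicate 1 (adjusted p up to 0.0788). For Peg10 the log2 fold change was -3.93 without 2i/LIF replicate 2.

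**Figure D3:**
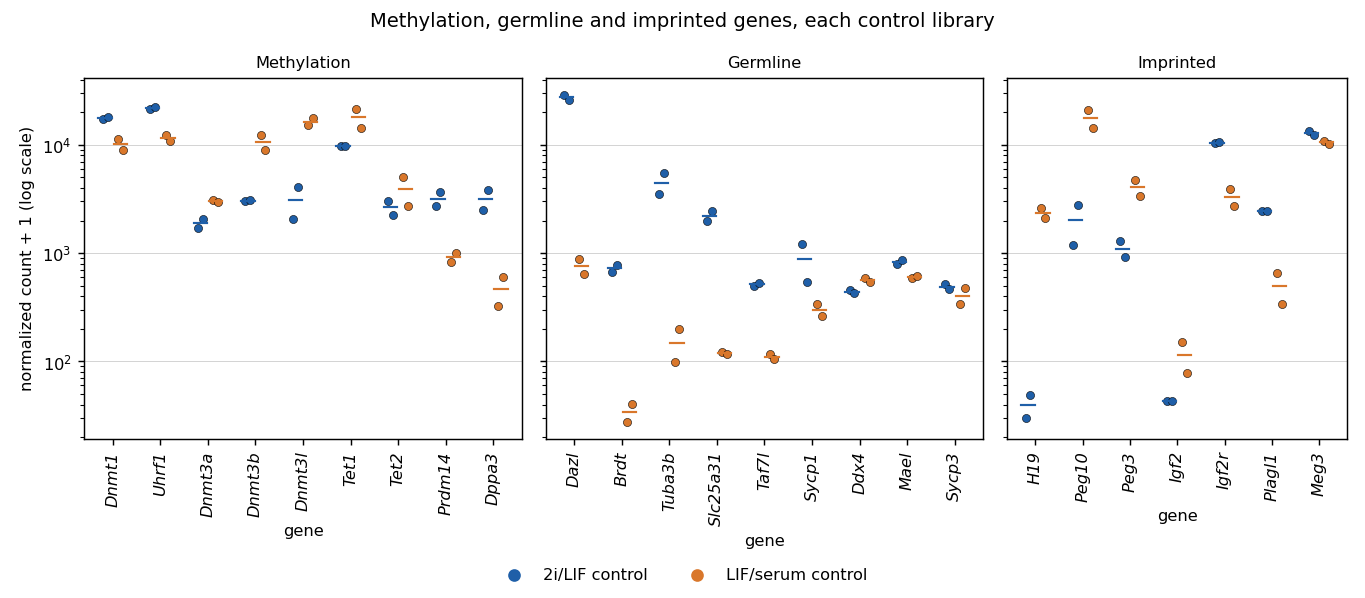
Normalized counts plus 1 (log axis) of methylation, germline and imprinted genes in each control library, 2i/LIF in blue and LIF/serum in orange, with a short line at each group mean. Dnmt3b and Dnmt3l lie lower and Dnmt1 and Uhrf1 higher in 2i/LIF, Dazl, Brdt and Slc25a31 lie more than a power of 10 higher, and Ddx4, Mael and Sycp3 lie close together between media.

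Polycomb repressive complexes silence developmental regulators such as the Hox genes. Among Polycomb subunits, 9 of 33 tested members were higher in 2i/LIF (27.3%) and 6 lower (18.2%), with a median log2 fold change of 0.22 (0.15 to 0.27). Over all genes these shares were 20.3% and 16.5%. The catalytic subunit Ezh2 was not called (7789 and 8364 against 6132 and 7468, log2 fold change 0.25, edgeR adjusted p = 0.153), whereas its partners moved apart. Suz12, a core subunit of PRC2, had 17132 and 14116 normalized counts in 2i/LIF and 4456 and 3319 in LIF/serum (log2 fold change 2.01, SE 0.31, edgeR adjusted p = 0.00175). Eed, another core subunit of PRC2, fell from 9933 and 10301 normalized counts in LIF/serum to 5144 and 4676 in 2i/LIF (log2 fold change -1.04, SE 0.12, edgeR adjusted p = 0.000384). Cbx7, the main PRC1 chromodomain protein of ESCs, was lower (3756 and 1716 against 6384 and 5497, log2 fold change -1.12, edgeR adjusted p = 0.0235), as was Phc1 (6248 and 6605 against 20717 and 17286, log2 fold change -1.56, edgeR adjusted p = 8.2e-05). Among Hox genes 23 of 32 tested members were higher in 2i/LIF (71.9%) and none was lower, with a median log2 fold change of 3.19 (2.07 to 3.36), or 2.82 with members at 0 set to their bound. The levels stayed low: summed over the 39 listed Hox genes they came to 4087 to 4320 normalized counts in 2i/LIF and 644.6 to 837.3 in LIF/serum. Hoxc5 had 47.1 and 27 normalized counts in 2i/LIF and 0 in both LIF/serum libraries, at least 11.6-fold higher in 2i/LIF (edgeR adjusted p = 0.00323). Hoxc8 had 19.05 and 13 normalized counts in 2i/LIF and 0 in both LIF/serum libraries, at least 5.02-fold higher in 2i/LIF (edgeR adjusted p = 0.00491). Hoxc11 had 56.1 and 68 against 3.18 and 0, a ratio of 38.9 (95% counting interval 13 to 191, edgeR adjusted p = 0.00263). Hoxb4 had 120.3 and 83 normalized counts in 2i/LIF and 23.3 and 23.5 in LIF/serum (log2 fold change 2.11, SE 0.37, edgeR adjusted p = 0.00306). Hoxa7, Hoxa11, Hoxb2, Hoxb3 and Hoxd4 share exonic sequence with antisense or overlapping genes and are uncertain. Hoxd1, the most anterior gene of its cluster, was not called (28.1 and 50.01 against 20.1 and 29.9, log2 fold change 0.64, edgeR adjusted p = 0.316). With at least 10 counts required in every library, 8 Hox genes were called higher. In Dax1KO cells the median of the Hox list was 1.05. Of the 32 tested members, 6 passed the test of a difference between genotypes, which called 2.87% of all genes. The call was lost for Cbx7 without LIF/serum replicate 1 and without a filter on low counts (adjusted p up to 0.0967). For Cbx7 the log2 fold change was -1.79 without 2i/LIF replicate 1.

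Primitive endoderm, the extraembryonic lineage that arises beside the naive epiblast under FGF signalling, was marked by lower levels in 2i/LIF. In this list, 0 of 24 tested members were higher in 2i/LIF (0%) and 18 lower (75%), with a median log2 fold change of -1.62 (-1.93 to -1.38). Gata6, a master regulator of the lineage, was lower in 2i/LIF, at 241 and 275 normalized counts against 722 and 517 (log2 fold change -1.26, SE 0.29, edgeR adjusted p = 0.0116). Gata4, which acts downstream of GATA6, had 364 and 346 normalized counts in 2i/LIF and 893 and 736 in LIF/serum (log2 fold change -1.20, SE 0.15, edgeR adjusted p = 0.000759). Sox7, a SOX factor of the same cells, fell from 362 and 241 normalized counts in LIF/serum to 16 and 14 in 2i/LIF (log2 fold change -4.31, SE 0.47, edgeR adjusted p = 0.000365). The endocytic and secreted products named here fell as well. Dab2, an endocytic adaptor of the extraembryonic endoderm, had 214 and 285 normalized counts in 2i/LIF and 2952 and 1992 in LIF/serum (log2 fold change -3.31, SE 0.27, edgeR adjusted p = 9.8e-05). The mature marker Ttr was at 0 in both 2i/LIF libraries and at 61.5 and 127 in LIF/serum, at least 31.4-fold lower in 2i/LIF (edgeR adjusted p = 0.00126). Cubn, the receptor cubilin, was lower in 2i/LIF, at 25.1 and 79 normalized counts against 7702 and 3492 (log2 fold change -6.74, SE 0.62, edgeR adjusted p = 0.000166). The basement membrane genes were divided. Col4a1, a collagen, had 2434 and 1933 normalized counts in 2i/LIF and 13322 and 5963 in LIF/serum (log2 fold change -2.14, SE 0.36, edgeR adjusted p = 0.00269). Lama1 (6793 and 5832 against 9115 and 5444, log2 fold change -0.21, edgeR adjusted p = 0.605) and Lamc1 (24329 and 23422 against 18503 and 12202, log2 fold change 0.64, edgeR adjusted p = 0.0572), which ESCs also express, were not called. Pdgfra, a receptor used to sort these cells, fell from 516 and 379 normalized counts in LIF/serum to 196 and 127 in 2i/LIF (log2 fold change -1.47, SE 0.29, edgeR adjusted p = 0.00548). Between the LIF/serum libraries the summed level of the list ranged from 56488 to 84753, against 49783 to 52170 in 2i/LIF. Of the members 45.8% had replicate 2 below replicate 1 in both media, against 26.4% of all genes. The primitive endoderm list had 1 higher without 2i/LIF replicate 2 and 2 higher without LIF/serum replicate 1. Significance was not kept for Gata6 without 2i/LIF replicate 1 or LIF/serum replicate 1 (adjusted p up to 0.07). For Cubn the log2 fold change was -6.14 without 2i/LIF replicate 1, -7.84 without 2i/LIF replicate 2 and -6.06 without LIF/serum replicate 1. For Col4a1 the log2 fold change was -1.45 without LIF/serum replicate 1.

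Other lineages gave mixed counts, with shares of streak and mesoderm genes near the 20.3% and 16.5% of all genes. Among primitive streak and mesoderm genes, 5 of 22 tested members were higher in 2i/LIF (22.7%) and 4 lower (18.2%), with a median log2 fold change of 0.52 (0.31 to 0.89). Gsc, the organizer homeobox gene goosecoid, had 442 and 469 normalized counts in 2i/LIF and 0 and 17.1 in LIF/serum (log2 fold change 5.72, SE 0.75, edgeR adjusted p = 0.000855). Eomes, a T-box factor of streak and trophoblast, was higher in 2i/LIF, at 623 and 790.2 normalized counts against 258 and 347 (log2 fold change 1.23, SE 0.20, edgeR adjusted p = 0.00261). T, encoding Brachyury, had a log2 fold change of 0.34 (edgeR adjusted p = 0.81). Among neural ectoderm genes, 8 of 22 tested members were higher in 2i/LIF (36.4%) and 4 lower (18.2%), with a median log2 fold change of 0.50 (0.16 to 0.85). Nes, the intermediate filament nestin, had 2717 and 2841 normalized counts in 2i/LIF and 481 and 578 in LIF/serum (log2 fold change 2.39, SE 0.14, edgeR adjusted p = 2.66e-05). Otx1, a forebrain homeobox gene, rose from 10.6 and 0 normalized counts in LIF/serum to 312 and 275 in 2i/LIF (log2 fold change 5.75, SE 0.79, edgeR adjusted p = 0.00107). The neural determinants Sox1 (264 and 197 against 407 and 248, log2 fold change -0.51, edgeR adjusted p = 0.214) and Pax6 (114 and 98 against 143 and 243, log2 fold change -0.86, edgeR adjusted p = 0.0639) were not called. Neurod1 was among the 4 lower members (87.2 and 43 against 560 and 379, log2 fold change -2.85, edgeR adjusted p = 0.00234), and its values with a library left out are not given here. Among trophectoderm genes, 7 of 21 tested members were higher in 2i/LIF (33.3%) and 5 lower (23.8%), with a median log2 fold change of -0.13 (-0.40 to 0.08). Esx1, an X-linked placental homeobox gene, had 1334 and 2128 normalized counts in 2i/LIF and 14.8 and 33.1 in LIF/serum (log2 fold change 6.17, SE 0.44, edgeR adjusted p = 5.84e-05). Gata3 (132 and 116 against 50.9 and 20.3, log2 fold change 1.80, edgeR adjusted p = 0.0135), Tfap2c (2737 and 2685 against 1369 and 1473, log2 fold change 0.93, edgeR adjusted p = 0.00194) and Tead4 (1229 and 1453 against 655 and 599, log2 fold change 1.10, edgeR adjusted p = 0.000523) were higher, whereas Krt18, a simple epithelial keratin (335 and 362 against 971 and 938, log2 fold change -1.45, edgeR adjusted p = 0.000216), was lower and Cdx2 was at 0 in 2i/LIF. Among streak and mesoderm genes 45.5% had replicate 2 below replicate 1 in both media, against 26.4% of all genes. The mesoderm list had 3 higher without 2i/LIF replicate 1 or LIF/serum replicate 2. The trophectoderm list had 4 higher without 2i/LIF replicate 1 and 3 lower without LIF/serum replicate 1. Single alternatives removed the call for Gata3 without 2i/LIF replicate 1 (adjusted p up to 0.0572). For Gsc the log2 fold change was 4.73 without LIF/serum replicate 1. For Otx1 the log2 fold change was 4.75 without LIF/serum replicate 2. For Esx1 the log2 fold change was 6.83 without LIF/serum replicate 2. For Gata3 the log2 fold change was 2.61 without LIF/serum replicate 1.

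Genes of the two-cell-like state, which a few cells of a serum culture enter at any time, were mostly lower in 2i/LIF. In this list, 0 of 22 tested members were higher in 2i/LIF (0%) and 18 lower (81.8%), with a median log2 fold change of -2.72 (-3.47 to -1.77). Their summed level was 2112 to 3878 normalized counts in 2i/LIF and 27315 to 35614 in LIF/serum. The Zscan4 cluster, a hallmark of this state, has members at least 95% identical, so that reads cannot be assigned to 1 copy with certainty. Zscan4c was lower in 2i/LIF, at 89.2 and 160.0 normalized counts against 3349 and 4523 (log2 fold change -4.98, SE 0.31, edgeR adjusted p = 3.63e-05). Zscan4b had 34.1 and 18 normalized counts in 2i/LIF and 1828 and 2118 in LIF/serum (log2 fold change -6.24, SE 0.30, edgeR adjusted p = 2.9e-05). Zscan4e fell from 2470 and 2813 normalized counts in LIF/serum to 56.1 and 90.02 in 2i/LIF (log2 fold change -5.17, SE 0.35, edgeR adjusted p = 5.04e-05). All 3 were far lower in both 2i/LIF libraries. Replicate 2 lay above replicate 1 in both media for 17 of 22 tested members (77.3%), against 24.6% of all genes. A fit that blocked on replicate number is within the range of the list median, and its own value is not given here. The source of this difference was not tested. Of the members, 9 passed the test of a difference between genotypes. Promoter windows of 13 members held a median of 2 CpGs and no E-box or E2F motif. With at least 10 counts required in every library, 6 members were called lower. The two-cell-like list had 1 higher without 2i/LIF replicate 1 and a median of -3.47 without 2i/LIF replicate 2.

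Of the glycolytic genes that were called, most were lower in 2i/LIF. Among genes of glycolysis and the hypoxia response, 5 of 35 tested members were higher in 2i/LIF (14.3%) and 11 lower (31.4%), with a median log2 fold change of -0.14 (-0.48 to 0.08). Slc2a1, the glucose transporter GLUT1, had 4333 and 6551 normalized counts in 2i/LIF and 17358 and 29807 in LIF/serum (log2 fold change -2.12, SE 0.41, edgeR adjusted p = 0.00495). Pdk1, a kinase that keeps pyruvate out of mitochondria, was lower in 2i/LIF, at 1733 and 2729 normalized counts against 7345 and 7743 (log2 fold change -1.76, SE 0.20, edgeR adjusted p = 0.000461). Pkm, pyruvate kinase, had 54567 and 68077 normalized counts in 2i/LIF and 97077 and 125986 in LIF/serum (log2 fold change -0.86, SE 0.18, edgeR adjusted p = 0.00775). Pkm, Ldha and Pgk1 have processed copies in the genome that may take some of their reads. Ldha, lactate dehydrogenase A, fell from 49378 and 74459 normalized counts in LIF/serum to 22986 and 33746 in 2i/LIF (log2 fold change -1.13, SE 0.28, edgeR adjusted p = 0.0161). Its counterpart Ldhb went up (4671 and 5385 against 2015 and 2841, log2 fold change 1.05, edgeR adjusted p = 0.00368), as did hexokinase 1 (Hk1, 5881 and 4811 against 1078 and 1157, log2 fold change 2.26, edgeR adjusted p = 0.000592). Hk2 (7701 and 8035 against 8755 and 10940, log2 fold change -0.32, edgeR adjusted p = 0.122), Slc2a3 (32116 and 32372 against 29958 and 34303, log2 fold change 0.01, edgeR adjusted p = 0.986) and Aldoa (29186 and 43178 against 32235 and 47579, log2 fold change -0.14, edgeR adjusted p = 0.735) were not called. Bnip3, a mitophagy receptor of the hypoxia response, spread widely (282 and 1103 against 1891 and 6178, log2 fold change -2.54, edgeR adjusted p = 0.0351). In both media replicate 2 lay above replicate 1 for 29 of the 35 genes (82.9%), against 24.6% of all genes tested. The range of the list median includes a fit that blocked on replicate number, whose value for this list is not given here. The source of this shared difference was not tested. The glycolysis list had 5 lower without 2i/LIF replicate 1, 3 higher without 2i/LIF replicate 2 and 6 lower without LIF/serum replicate 2. Without a filter on low counts 7 were lower. A call was not made for Pkm without 2i/LIF replicate 1 (adjusted p up to 0.0562) and for Ldha without 2i/LIF replicate 1 or LIF/serum replicate 2 and without a filter on low counts (adjusted p up to 0.101). Likewise it was lost for Bnip3 without 2i/LIF replicate 1 or LIF/serum replicate 2 and without a filter on low counts (adjusted p up to 0.216). For Bnip3 the log2 fold change was -1.87 without 2i/LIF replicate 1, -3.89 without 2i/LIF replicate 2, -3.16 without LIF/serum replicate 1 and -1.47 without LIF/serum replicate 2.
Among nuclear-encoded subunits of oxidative phosphorylation, 10 of 82 tested members were higher in 2i/LIF (12.2%) and 2 lower (2.44%), with a median log2 fold change of 0.11 (-0.05 to 0.25). Both shares lay under those of all genes. Cox6a2, a muscle isoform of a cytochrome oxidase subunit, had 34.1 and 23 normalized counts in 2i/LIF and 0 in both LIF/serum libraries, at least 8.95-fold higher in 2i/LIF (edgeR adjusted p = 0.00466). Cox7a1 was higher (636 and 796 against 134 and 268, log2 fold change 1.83, edgeR adjusted p = 0.00764), and Ndufs1 of complex I was lower (4249 and 4624 against 6715 and 6680, log2 fold change -0.59, edgeR adjusted p = 0.00281). Cox4i1 (10611 and 10938 against 9678 and 13058, log2 fold change -0.08, edgeR adjusted p = 0.712), Atp5a1 (31923 and 32093 against 33295 and 33820, log2 fold change -0.07, edgeR adjusted p = 0.604) and Sdha (7560 and 8802 against 7253 and 7835, log2 fold change 0.12, edgeR adjusted p = 0.477) were not called. Replicate 2 lay above replicate 1 in both media for 53 of 82 genes (64.6%). The 13 protein-coding mitochondrial genes were listed at 0 in all libraries, so respiratory genes of the mitochondrial genome could not be compared. The oxidative phosphorylation list had 1 lower without 2i/LIF replicate 1 or 2i/LIF replicate 2, 2 higher without 2i/LIF replicate 2, 4 higher without LIF/serum replicate 1, 6 lower without LIF/serum replicate 1, a median of -0.05 without LIF/serum replicate 1 and 19 higher without LIF/serum replicate 2. It had 4 higher in a fit of the control libraries alone and 5 higher with the fold change tested against 1.2.

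Genes of cholesterol and fatty acid synthesis were higher or not called in 2i/LIF. In this list, 24 of 42 tested members were higher in 2i/LIF (57.1%) and 0 lower (0%), with a median log2 fold change of 0.78 (0.71 to 0.88). Summed over the list, normalized counts came to 307281 to 339060 in 2i/LIF and 158043 to 170615 in LIF/serum. Srebf2, the transcription factor SREBP2 that drives sterol genes, had 15169 and 17872 normalized counts in 2i/LIF and 7622 and 6369 in LIF/serum (log2 fold change 1.24, SE 0.14, edgeR adjusted p = 0.000369). Insig1, a feedback inhibitor of SREBP processing, was higher in 2i/LIF, at 11311 and 12964 normalized counts against 2612 and 2558 (log2 fold change 2.23, SE 0.13, edgeR adjusted p = 2.66e-05). Enzymes of the pathway were called in part. Cyp51, lanosterol demethylase, had 7400 and 9702 normalized counts in 2i/LIF and 4175 and 4054 in LIF/serum (log2 fold change 1.06, SE 0.16, edgeR adjusted p = 0.00147). Hmgcs1 (11941 and 13137 against 10361 and 9790, log2 fold change 0.32, edgeR adjusted p = 0.0599) and Idi1 (4186 and 3495 against 4913 and 4174, log2 fold change -0.24, edgeR adjusted p = 0.197) were not called, nor was fatty acid synthase (Fasn, 21737 and 25193 against 20249 and 14669, log2 fold change 0.43, edgeR adjusted p = 0.131). Both desaturase genes and an acetyl-CoA synthetase gene also rose. Scd1, stearoyl-CoA desaturase 1, rose from 3397 and 2808 normalized counts in LIF/serum to 23226 and 30735 in 2i/LIF (log2 fold change 3.12, SE 0.20, edgeR adjusted p = 4.41e-05). Scd2, stearoyl-CoA desaturase 2, had 61551 and 66222 normalized counts in 2i/LIF and 20904 and 18136 in LIF/serum (log2 fold change 1.71, SE 0.15, edgeR adjusted p = 0.000136). Acss2, acetyl-CoA synthetase, was higher in 2i/LIF, at 2166 and 2164 normalized counts against 384 and 523 (log2 fold change 2.26, SE 0.19, edgeR adjusted p = 0.000128). Mylip, a ubiquitin ligase that responds to LXR rather than SREBP, was higher as well (1029 and 1034 against 123 and 130.1, log2 fold change 3.03, edgeR adjusted p = 1.8e-05). In Dax1KO cells the median was 0.36, and 17 of the 42 members were higher and 6 lower, against 15.2% and 13.7% of all genes. Of the 42, 7 passed the test of a difference between genotypes, which called 2.87% of all genes.

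**Figure D4:**
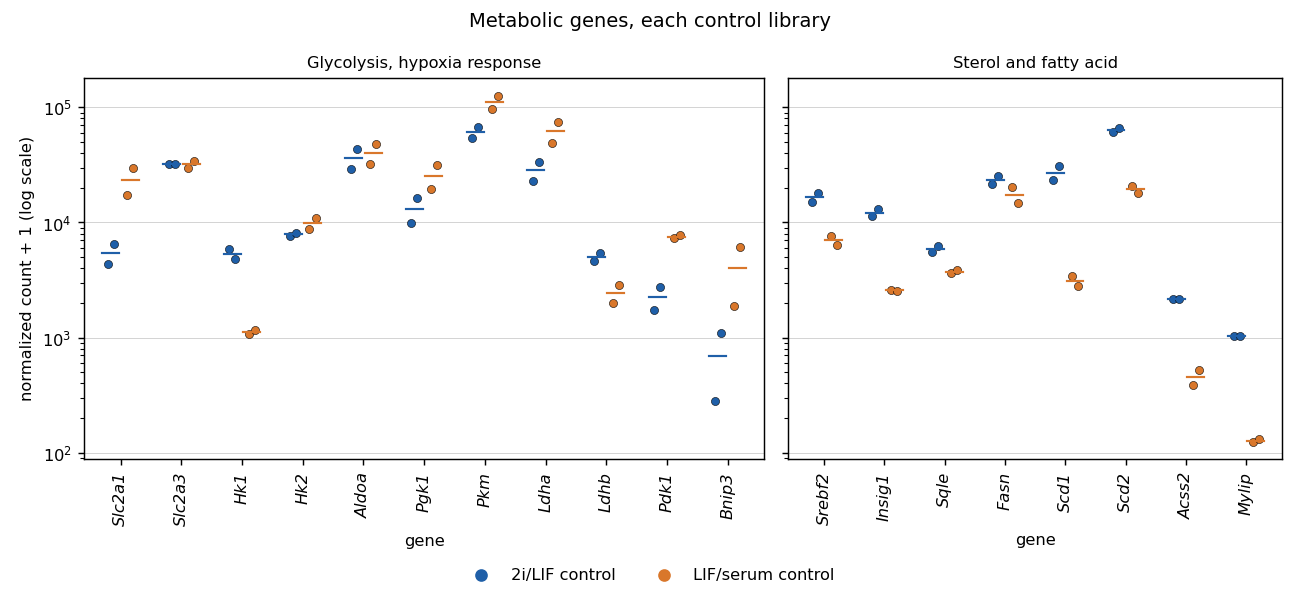
Normalized counts plus 1 (log axis) of glycolytic and hypoxia-response genes (left) and of sterol and fatty acid genes (right) in each control library, 2i/LIF in blue and LIF/serum in orange, with a short line at each group mean. Slc2a1, Ldha and Pdk1 lie lower in 2i/LIF and Hk1 and Ldhb higher, and every sterol or fatty acid gene shown lies higher in 2i/LIF, Fasn without passing the test.

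The shares of amino acid and stress genes that were called lay near those of all genes, 20.3% higher and 16.5% lower. Among serine synthesis, one-carbon and ATF4 response genes, 10 of 37 tested members were higher in 2i/LIF (27%) and 4 lower (10.8%), with a median log2 fold change of 0.13 (0.01 to 0.25). Asns, asparagine synthetase, had 27803 and 24332 normalized counts in 2i/LIF and 10492 and 11425 in LIF/serum (log2 fold change 1.25, SE 0.13, edgeR adjusted p = 0.000256). Pycr1, a proline synthesis enzyme, rose from 1090 and 1105 normalized counts in LIF/serum to 2913 and 3046 in 2i/LIF (log2 fold change 1.44, SE 0.14, edgeR adjusted p = 0.000232). The ATF4 targets Trib3 (872 and 1074 against 788 and 1174, log2 fold change -0.01, edgeR adjusted p = 0.974) and Chac1 (480.3 and 930.2 against 396 and 523, log2 fold change 0.62, edgeR adjusted p = 0.195) were not called. The amino acid transporter genes Slc38a2 (5569 and 5219 against 15971 and 12063, log2 fold change -1.38, edgeR adjusted p = 0.00156) and Slc7a3 (1734 and 1725 against 4714 and 4722, log2 fold change -1.45, edgeR adjusted p = 0.000103) were lower. Threonine dehydrogenase (Tdh), on which mouse ESCs depend for one-carbon units, was not called (15440 and 14908 against 15705 and 16590, log2 fold change -0.09, edgeR adjusted p = 0.563). Among metallothionein, selenium and redox genes, 7 of 24 tested members were higher in 2i/LIF (29.2%) and 4 lower (16.7%), with a median log2 fold change of 0.12 (0.02 to 0.23). Nqo1, a quinone reductase, had 3916 and 4146 normalized counts in 2i/LIF and 1692 and 1110 in LIF/serum (log2 fold change 1.52, SE 0.22, edgeR adjusted p = 0.00135). Gpx1, a selenium-dependent peroxidase, was higher in 2i/LIF, at 6077 and 6163 normalized counts against 2872 and 2024 (log2 fold change 1.32, SE 0.27, edgeR adjusted p = 0.00618). Not all NRF2 targets rose with Nqo1, since Hmox1, haem oxygenase (3280 and 3372 against 8009 and 7733, log2 fold change -1.24, edgeR adjusted p = 0.00018), and Srxn1, sulfiredoxin (709.9 and 763 against 1950 and 1477, log2 fold change -1.22, edgeR adjusted p = 0.00248), were lower. Mt1 (8682 and 9950 against 7479 and 10116, log2 fold change 0.08, edgeR adjusted p = 0.816) and Mt2 (16072 and 11434 against 14551 and 14076, log2 fold change -0.06, edgeR adjusted p = 0.893) were not called.

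The Myc network, which drives ribosome production and growth, was mostly lower in 2i/LIF. Among Myc, its partners and its targets, 2 of 31 tested members were higher in 2i/LIF (6.45%) and 17 lower (54.8%), with a median log2 fold change of -0.57 (-0.62 to -0.52). Mycn, the second Myc gene of ESCs, had 4961 and 4579 normalized counts in 2i/LIF and 9044 and 8958 in LIF/serum (log2 fold change -0.92, SE 0.10, edgeR adjusted p = 0.000374). Mycl went the other way (1349 and 1154 against 618 and 576, log2 fold change 1.07, edgeR adjusted p = 0.00111). Ncl, nucleolin, fell from 125106 and 129156 normalized counts in LIF/serum to 73351 and 65282 in 2i/LIF (log2 fold change -0.88, SE 0.10, edgeR adjusted p = 0.000511). Odc1, ornithine decarboxylase, with processed copies in the genome, had 12181 and 13892 normalized counts in 2i/LIF and 23016 and 25097 in LIF/serum (log2 fold change -0.88, SE 0.11, edgeR adjusted p = 0.00059). Cad, an enzyme of pyrimidine synthesis and a classical Myc target, was higher in 2i/LIF, at 16954 and 16744 normalized counts against 9579 and 7652 (log2 fold change 0.97, SE 0.14, edgeR adjusted p = 0.00123). Cytosolic ribosomal protein genes were nearly all uncalled: 0 of 79 were higher and 1 lower (median -0.09), and their summed counts ranged from 2575371 to 2725180 in 2i/LIF and from 2344065 to 3265012 in LIF/serum. Among cell cycle regulators, 8 of 29 tested members were higher in 2i/LIF (27.6%) and 8 lower (27.6%), with a median log2 fold change of 0.07 (-0.03 to 0.22). Cdkn1a, the CDK inhibitor p21, had 7347 and 5783 normalized counts in 2i/LIF and 2215 and 2401 in LIF/serum (log2 fold change 1.51, SE 0.15, edgeR adjusted p = 0.000239). The INK4 inhibitors Cdkn2a (1375 and 1402 against 359 and 498, log2 fold change 1.70, edgeR adjusted p = 0.000285) and Cdkn2b (491 and 423 against 100.7 and 145, log2 fold change 1.89, edgeR adjusted p = 0.000643) were higher, whereas Cdkn1c, the CDK inhibitor p57 (184 and 354 against 689 and 608, log2 fold change -1.27, edgeR adjusted p = 0.00941), was lower. Cyclin E1 (Ccne1, 4533 and 5086 against 11414 and 10445, log2 fold change -1.18, edgeR adjusted p = 0.000274) was lower. Ccnd3 spread from 8366 to 1148 between the 2i/LIF libraries and was not called (log2 fold change 0.40, edgeR adjusted p = 0.727). Among BCL2 family and IAP genes, 1 of 19 tested members were higher in 2i/LIF (5.26%) and 5 lower (26.3%), with a median log2 fold change of -0.31 (-0.34 to -0.17). Mcl1, an anti-apoptotic member, fell from 22200 and 23206 normalized counts in LIF/serum to 11304 and 13657 in 2i/LIF (log2 fold change -0.86, SE 0.15, edgeR adjusted p = 0.00322). The other lower members are pro-apoptotic, namely Bax (3835 and 4596 against 5565 and 8651, log2 fold change -0.75, edgeR adjusted p = 0.0198), Bcl2l11 (596 and 519 against 1441 and 1244, log2 fold change -1.27, edgeR adjusted p = 0.0133), Bmf (482 and 351 against 709 and 732, log2 fold change -0.79, edgeR adjusted p = 0.0108) and Hrk (33.1 and 60.01 against 181 and 162, log2 fold change -1.88, edgeR adjusted p = 0.00267). Bcl2l1 (1233 and 1369 against 1815 and 787, log2 fold change 0.00, edgeR adjusted p = 1) was not called. For the Myc list replicate 2 lay above replicate 1 in both media for 51.6% of the members, against 24.6% of all genes. The range of the Myc median includes a fit that blocked on replicate number, whose value for that list is not given here. The source of this difference was not tested. The cell cycle list had 4 higher without 2i/LIF replicate 2 and 5 higher without LIF/serum replicate 1. The BCL2 list had 3 lower without 2i/LIF replicate 1 or 2i/LIF replicate 2 and 2 higher without LIF/serum replicate 1. The call was lost for Bax without 2i/LIF replicate 1 or LIF/serum replicate 2 and without a filter on low counts (adjusted p up to 0.117) and for Bcl2l11 without 2i/LIF replicate 1, 2i/LIF replicate 2 or LIF/serum replicate 1 (adjusted p up to 0.0776). For Cdkn1c the log2 fold change was -1.86 without 2i/LIF replicate 2.

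Epithelial and mesenchymal genes did not move as opposite blocks. In this list, 7 of 30 tested members were higher in 2i/LIF (23.3%) and 13 lower (43.3%), with a median log2 fold change of -0.40 (-0.71 to -0.12). Cdh1, E-cadherin, had 28765 and 27113 normalized counts in 2i/LIF and 21181 and 17163 in LIF/serum (log2 fold change 0.54, SE 0.14, edgeR adjusted p = 0.0187). Epcam, another epithelial adhesion molecule, was lower in 2i/LIF, at 1768 and 2240 normalized counts against 6375 and 7410 (log2 fold change -1.78, SE 0.15, edgeR adjusted p = 0.000102). Esrp1, an epithelial splicing regulator, had 199.5 and 252 normalized counts in 2i/LIF and 1572 and 1342 in LIF/serum (log2 fold change -2.69, SE 0.30, edgeR adjusted p = 0.00041). Mesenchymal genes were divided too. Vim, vimentin, fell from 4672 and 5809 normalized counts in LIF/serum to 3310 and 3019 in 2i/LIF (log2 fold change -0.73, SE 0.16, edgeR adjusted p = 0.00837). Fn1, fibronectin, had 36695 and 40210 normalized counts in 2i/LIF and 16559 and 11805 in LIF/serum (log2 fold change 1.44, SE 0.18, edgeR adjusted p = 0.000716). Mmp14, a membrane-bound matrix metalloproteinase, was lower in 2i/LIF, at 119 and 115 normalized counts against 882 and 828 (log2 fold change -2.87, SE 0.18, edgeR adjusted p = 3.81e-05). Among collagen and laminin genes, some of which primitive endoderm makes, 9 of 26 tested members were higher in 2i/LIF (34.6%) and 5 lower (19.2%), with a median log2 fold change of 0.41 (0.37 to 0.50). Col4a5, a collagen IV chain encoded on the X chromosome, had 169.5 and 177 normalized counts in 2i/LIF and 19.08 and 41.6 in LIF/serum (log2 fold change 2.51, SE 0.42, edgeR adjusted p = 0.00253). Lama4, a laminin chain of mesenchyme and vessels, rose from 18 and 43.7 normalized counts in LIF/serum to 848 and 1176 in 2i/LIF (log2 fold change 5.03, SE 0.41, edgeR adjusted p = 0.000102). The fibrillar collagen chains Col1a1 (117 and 134 against 21.2 and 45.9, log2 fold change 1.90, edgeR adjusted p = 0.00541) and Col1a2 (0 and 4.0 against 23.3 and 28.8, log2 fold change -3.62, edgeR adjusted p = 0.0124), which fibroblasts make together, moved in opposite directions. Of the fibroblast markers, 5 of 8 tested members were higher in 2i/LIF (62.5%) and 1 lower (12.5%), with a median log2 fold change of 2.08 (0.86 to 2.38). The matrix gene Lum was at 15 and 22 in 2i/LIF and 0 in LIF/serum, at least 5.81-fold higher in 2i/LIF (edgeR adjusted p = 0.0101), and Fbln2 at 868 and 705 against 86.9 and 113 (log2 fold change 2.97, edgeR adjusted p = 5.84e-05). The epithelial and mesenchymal list had 4 higher without 2i/LIF replicate 2. The fibroblast list had 3 higher and 0 lower with at least 10 counts required in every library, and 3 higher with a median of 0.86 with counts divided by 3. Significance was not kept for Cdh1 without 2i/LIF replicate 1, 2i/LIF replicate 2 or LIF/serum replicate 2 and with the fold change tested against 1.2 (adjusted p up to 0.0967) and for Vim without 2i/LIF replicate 2 (adjusted p up to 0.051). For Col4a5 the log2 fold change was 3.15 without LIF/serum replicate 2. For Lama4 the log2 fold change was 5.78 without LIF/serum replicate 2. For Col1a1 the log2 fold change was 2.54 without LIF/serum replicate 2. For Col1a2 the log2 fold change was -2.66 without 2i/LIF replicate 1.

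Several of the genes with large increases were at 0 in both LIF/serum libraries, so that only a bound of their size can be given. Heph, a copper-dependent ferroxidase, had 259 and 436 normalized counts in 2i/LIF and 0 in both LIF/serum libraries, at least 109-fold higher in 2i/LIF (edgeR adjusted p = 6.78e-05). Csf3r, the receptor of granulocyte colony-stimulating factor, had 227 and 256 normalized counts in 2i/LIF and 0 in both LIF/serum libraries, at least 75.7-fold higher in 2i/LIF (edgeR adjusted p = 0.000119). Gfra3, a co-receptor of the neurotrophic factor artemin, had 204 and 259 normalized counts in 2i/LIF and 0 in both LIF/serum libraries, at least 72.5-fold higher in 2i/LIF (edgeR adjusted p = 0.00141). The locus of Hsf3, a heat shock factor, overlaps that of Heph at its end on the X chromosome, on the opposite strand. Hsf3 had 424 and 328 normalized counts in 2i/LIF and 0 in both LIF/serum libraries, at least 118-fold higher in 2i/LIF (edgeR adjusted p = 0.00025). The X-linked homeobox genes Rhox2b, Rhox2c, Rhox2e and Rhox2h, the X-linked Ott and the Y-linked Zfy2 showed the same pattern, with 116 to 501 normalized counts per 2i/LIF library, but all 6 have near-identical copies. Several of the largest decreases were of genes at 0 in 2i/LIF. Lgals2, a galectin, had 0 counts in both 2i/LIF libraries and 341 and 257 normalized counts in LIF/serum, at least 99.6-fold lower in 2i/LIF (edgeR adjusted p = 6.43e-05). Spink1, a serine protease inhibitor, had 0 counts in both 2i/LIF libraries and 354 and 414 normalized counts in LIF/serum, at least 128-fold lower in 2i/LIF (edgeR adjusted p = 6.46e-05). Tfec, a MITF family factor, had 0 counts in both 2i/LIF libraries and 171 and 125 normalized counts in LIF/serum, at least 49.2-fold lower in 2i/LIF (edgeR adjusted p = 0.000152). Has2, a hyaluronan synthase, had 0 and 6.0 normalized counts in 2i/LIF and 282 and 199.5 in LIF/serum (log2 fold change -6.27, SE 0.67, edgeR adjusted p = 0.000325). By normalized counts, Eef2, the translation elongation factor (178462 and 207692 against 123698 and 129218, log2 fold change 0.61, edgeR adjusted p = 0.00455), and Pabpc1, the poly(A)-binding protein (197325 and 183654 against 129424 and 119045, log2 fold change 0.62, edgeR adjusted p = 0.00362), gained among the most and Npm1, nucleophosmin, with a processed copy (119043 and 108090 against 178903 and 190630, log2 fold change -0.70, edgeR adjusted p = 0.00221), lost among the most. Genes of the X chromosome were higher in 30.3% of 865 tested cases (262 genes), against 15.9% to 23.2% on each autosome with at least 100 tested genes, with a median log2 fold change of 0.18. For Has2 the log2 fold change was -5.29 without 2i/LIF replicate 1.

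The same medium comparison was made in the Dax1KO libraries, which share no library with the control comparison. In Dax1KO cells 28.9% of genes were called (5999), 15.2% higher and 13.7% lower. Of the 7641 genes called in control cells, 7005 (91.7%) had the same sign in Dax1KO cells, against 66% of the 13108 genes not called. Called in the same direction in both were 4237 genes, 55.5% of the control calls and 70.6% of the Dax1KO calls, and 65 were called in opposite directions. A test of the difference between genotypes called 2.87% of genes (596). Of these, 484 were called in control cells, 230 had opposite signs in the 2 genotypes and 381 changed more in control cells. This count moved with single libraries and ranged from 36 without Dax1KO 2i/LIF replicate 2 to 344 without control LIF/serum replicate 1. The ERK list had a median of -0.89 in control and -0.68 in Dax1KO cells, and the germline list 1.54 and 1.15. The primitive endoderm list had -1.62 and -2.97, and the sterol list 0.78 and 0.36. Collagen and laminin genes had medians of 0.41 and -0.30, and the 8 tested fibroblast markers 2.08 and -0.13. Some pathway readouts passed the test of the difference with a larger fall in control cells. The log2 fold change of Id1 was -4.36 in control and -2.12 in Dax1KO cells (difference -2.25, edgeR adjusted p = 0.00942), that of Spry2 -2.12 in control and -0.71 in Dax1KO cells (difference -1.41, edgeR adjusted p = 0.0268) and that of Lefty1 -4.71 in control and -2.39 in Dax1KO cells (difference -2.32, edgeR adjusted p = 0.0422). The primitive endoderm regulator Gata6 fell less in control cells, by a log2 fold change of -1.26 in control and -3.77 in Dax1KO cells (difference 2.51, edgeR adjusted p = 0.0286). Insig1, the sterol feedback gene, rose more in control cells, with 2.23 in control and 1.36 in Dax1KO cells (difference 0.87, edgeR adjusted p = 0.0424).

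**Figure D5:**
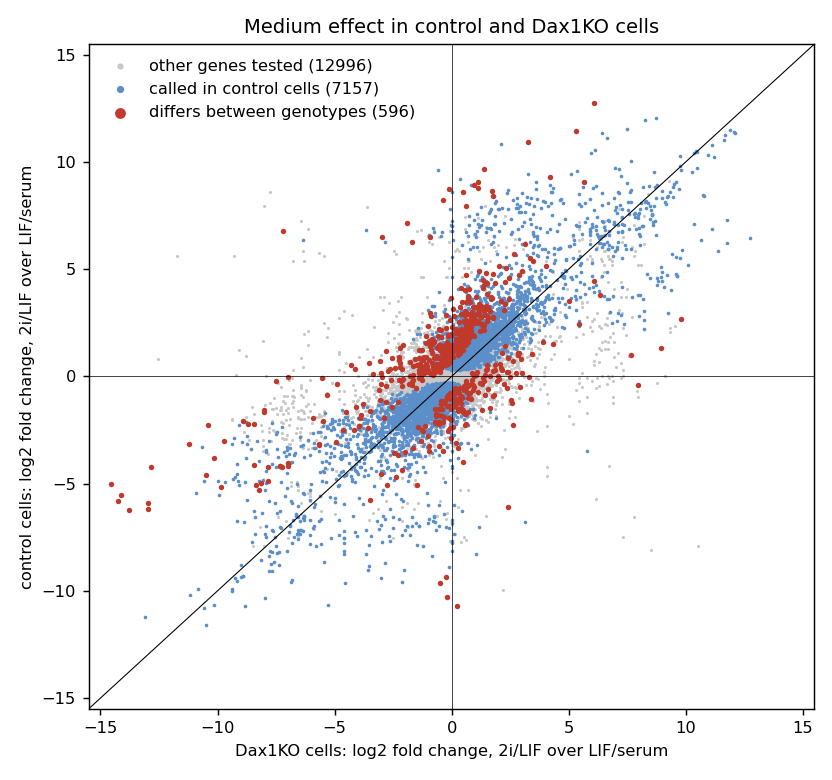
Log2 fold change of 2i/LIF over LIF/serum in Dax1KO cells (horizontal axis) and in control cells (vertical axis), 1 point per tested gene, with the line of equal change. Blue points are 7157 genes called in control cells that did not pass the test of a difference, red points the 596 that passed it, and grey points the other 12996, and most blue points lie in the quadrants of equal sign.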

How the data were processed

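Processed data were gene-level counts of 8 RNA-seq libraries from mouse ESCs, 2 per genotype and medium. The authors deposited raw read counts, 1 file per library. The submitters' processing notes name HISAT2 (version 2.0.4), mm10 and DESeq2, and the counting tool, annotation and strand setting are not given in the sources used here. Of 52550 listed gene identifiers 52403 matched GENCODE mouse release M21, 147 stayed without a symbol, and rows with no gene name were absent. Low deposited counts piled up at 3: 1348 to 1587 genes per library had a count of 3, against 823 to 940 with 2 and 469 to 515 with 4.

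Counts were filtered with filterByExpr and scaled by TMM factors (0.96 to 1.04), and all 8 libraries were fitted in 1 quasi-likelihood model with edgeR (4.0.16, R 4.3.3, limma 3.58.1). P-values were adjusted by Benjamini-Hochberg over 20749 genes. The biological coefficient of variation was 20.9%, with 4.04 prior degrees of freedom. The script was tested on simulated data of the control comparison over 20749 genes, 200 of them changed: edgeR recovered 36% of changes of log2 1 and 88% of changes of log2 2, with 6 false among 130 calls. In the data 36.8% of genes were called, a far larger share than was changed here. The adjustment of p depends on that share, so these rates belong to the simulated setting and do not measure those of the real comparison. Genes were named if they were key members, held up to 3 of the largest called changes in either direction of a list, or were among the 10 largest changes, the 5 largest gains or losses of counts, or the largest differences between genotypes. Fos, Id4, Taf7l, Slc25a31, Thy1, Bmf and T lay outside this rule and were named after their values were seen. A few genes past this rule are not reported here. The 32 lists and all members were chosen with earlier results of these data known. Counting intervals and floors cover counting error only. Alternatives were DESeq2 (1.42.0), other scalings and filters, the control libraries alone, the replicate number as a block, a test of the fold change itself, counts divided by 3 and each library left out. Genes with a copy at least 95% identical over at least 50% of the transcript, or with at least 20% of their exonic length in another gene, were marked as uncertain (blastn 2.17.0, bedtools 2.31.1). Promoter windows were from RefSeq on GRCm38.p6, matched by symbol for 13071 tested genes. The DNA sequence of other regions and protein sequences were not used here.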

Additional observations from a re-analysis of the deposited data

Results flagged for a closer look

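The medium changed 42 of the genes named by the rule above by a different amount in control and Dax1KO cells. This was by edgeR's test of the difference (adjusted p at most 0.05), which called 2.87% of all genes. Thy1, named outside the rule, passed it too, with a log2 fold change of 2.25 in control and -0.22 in Dax1KO cells (difference 2.47, edgeR adjusted p = 0.00364). Values below are the log2 fold change of 2i/LIF over LIF/serum in control cells minus that in Dax1KO cells. Positive values among genes higher in control 2i/LIF, or hardly moved there, were Csf3r 7.67, Dcdc2a 7.39, Heph 6.14, Entpd3 3.02, Esx1 3.02, Fbln2 2.09, Bmp7 2.24, Axl 2.35, Mael 1.77 and Acss2 1.48. Smaller ones of this kind were Pycr1 1.47, Idh1 1.01, Cdkn1a 1.37, Nkd1 1.38, Dazl 1.15, Pecam1 1.15, Asns 1.04, Insig1 0.87 and Pcsk6 0.88, among them enzymes of proline and asparagine synthesis and a feedback gene of the sterol pathway. Genes of the two-cell-like state fell in both genotypes and less in control cells, with Zscan4-ps3 8.58, Zscan4a 8.48, Zscan4b 7.56, Zscan4-ps1 6.79, Zscan4e 4.67 and Zscan4c 3.14, and the carbonic anhydrase gene with Car4 7.07 behaved alike. The Zscan4 genes are near-identical copies and are not independent observations, and Hsp90aa1 below has near-identical copies too. Primitive endoderm and related genes gave Gata6 2.51, Gata4 1.60, Col4a2 1.89 and Hand1 2.77. Negative differences were found for the signalling genes Id1 -2.25, Lefty1 -2.32, Junb -1.68, Spry2 -1.41 and Fgf17 -2.27 and for Mycn -1.30, Ncl -0.70, Epcam -1.24, Lgals1 -1.69, Hsp90aa1 -1.29, Pax6 -2.68 and Meg3 -1.16. Where a group lies at 0 counts (Csf3r, Heph and others) the fitted difference depends on the prior count and is no measure of size. The number of genes past this test fell to between 36 and 344 when any 1 of the 8 libraries was left out, so single entries are less firm than the medium effect itself.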

How the results depend on the processing

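Depth was 35911384 to 37286251 counts per library, and with the counts divided by 3, 7711 genes were called, against 7641. How far depth limits the calls of low genes was not tested further. Of 303 named genes tested, 236 were called. Of these calls 187 held in every alternative and 215 held in those that kept all libraries. No called value of a named gene changed sign in any alternative, and uncalled ones changed sign 56 times over all genes and alternatives. Between 63.3% and 98.1% of the 7641 calls were called again in each alternative with a threshold fold change of 1.2, all in the same direction, and the share of higher genes ran from 50.9% (at least 10 counts in every library) to 59.8% (library totals alone). The median log2 fold change of all genes lay between -0.031 and 0.066.

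Counts of genes higher in 2i/LIF were 4182 with DESeq2, 3390 with at least 10 counts in every library and 3624 without a filter, against 4210. Tested against a fold change of 2, 1308 genes were higher and 785 lower, against 2670 and 1865 past this fold. Leaving out 1 control library gave 2769 to 3712 higher and 2288 to 2838 lower genes, and at a fold change of 2 it gave 2044 to 2496 and 1501 to 1668. In Dax1KO cells, against 3148 higher and 2851 lower genes, leaving out 1 library gave 1591 to 3385 and 1395 to 2990. The 596 genes past the test of the difference between genotypes became 1510 with DESeq2, 119 without a filter and 36 to 344 with 1 library left out. The cause of these shifts was not tested, except that leaving out a library also lowers the number of samples.

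Replicate numbers were not shown to pair the libraries: deviations from the group means correlated by 0.062 between the control groups and by -0.015 to 0.108 over all pairs of groups, the highest between control and Dax1KO cells in LIF/serum. Single lists did share a replicate difference, with replicate 2 higher for glycolysis, oxidative phosphorylation, two-cell-like and Myc genes and lower for core, primitive endoderm, mesoderm and imprinted genes, with the shares given beside those results. With the replicate number as a block, 4254 genes were higher and 3500 lower in control cells (2612 and 1826 at a fold change of 2), and the difference between genotypes was called for 552. Under this block 1 named gene, Six6, lost its call. Of 31 list medians 0 were marked as moved under it, and of 62 counts of called list members 1 was. On simulated data DESeq2 recovered 65% of changes of log2 1, against 36% with edgeR, with 42 false among 199 calls, against 6 among 130. Far fewer genes were changed there than were called in the data, so these rates do not carry over to the real comparison.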

Other observations

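Ccnd3, encoding cyclin D3, differed more between the 2i/LIF replicates than between media, with 8366 and 1148 normalized counts in the 2i/LIF libraries and 3113 and 4094 in the LIF/serum libraries. Gm10925, a gene model with the sequence of mitochondrial Atp6, had 143540 and 118445 in 2i/LIF and 190756 and 151231 in LIF/serum, while the 37 genes annotated on the mitochondrial genome were all listed at 0. The Y-linked genes Kdm5d, Uty and Ddx3y did not move together: the log2 fold change was 2.82 for Kdm5d, -1.54 for Uty and -1.04 for Ddx3y, and Xist, the X inactivation RNA, changed by -2.20. These genes were chosen after their values were seen.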
